A study of Homo sapiens with 6 samples.

Results

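The eIF4 initiation factors are described here by 10 genes, chosen by symbol from the 61806 genes listed: the scaffolds EIF4G1, EIF4G2 and EIF4G3, the helicases EIF4A1, EIF4A2 and EIF4A3, the cap-binding proteins EIF4E and EIF4E2, and the helicase cofactors EIF4B and EIF4H. All 10 symbols were found, each on 1 row. The rule that picks the rows uses the symbol alone. RNA-seq was done on poly(A) RNA of MG63, an established human osteosarcoma line. The knockdown cells carried a stable short hairpin against FTO (shFTO), an enzyme that removes methyl groups from adenosine in RNA, and the control cells carried a control hairpin (shNC). Each group had 3 biological replicates of the same line, and the question was which transcripts differ when FTO is knocked down. The labels do not say whether either line was a clone or a pool, and 1 hairpin per group is named.

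Translation of most capped mRNAs begins when eIF4E binds the cap at the 5′ end, eIF4G bridges eIF4E to the ribosome, and the DEAD-box helicase eIF4A unwinds the leader with help from eIF4B or eIF4H. EIF4G2, also called DAP5, resembles the part of eIF4G that holds eIF4A and eIF3 but lacks the eIF4E-binding region, so it is not itself a cap-complex scaffold. EIF4A3 is a member of the helicase family by sequence and is known as the core of the exon junction complex, not as a cap-complex factor.

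The scaffold genes differ from each other at the first codon. In GENCODE release 29 the coding sequence of EIF4G2 opens with GTG and has 907 codons. EIF4G1 opens with ATG and has 1599 codons, and EIF4G3 opens with ATG and has 1585. The first 30 coding bases are shown because they set the dominant gene of the set beside its paralogues, with the start codon in capitals. On GRCh38 they lie at chr11:10807266-10807295 on the minus strand for EIF4G2, chr3:184315797-184315826 on the plus strand for EIF4G1 and chr1:21002713-21002742 on the minus strand for EIF4G3.
EIF4G2: GTGgagagtgcgattgcagaagggggtgct
EIF4G1: ATGaacaaagctccacagtccacaggcccc
EIF4G3: ATGaattcacaacctcaaacccgttctccg

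The helicase genes are close paralogues, and their sequences are shown because their levels turned out far apart. The stretches are the 90 coding bases around the codons for the DEAD motif, coding bases 508 to 597 of EIF4A2, 505 to 594 of EIF4A1 and 520 to 609 of EIF4A3. Capitals mark bases that differ from EIF4A2, which are 16 in EIF4A1 and 27 in EIF4A3. Over the whole annotated transcripts, EIF4A1 and EIF4A2 shared 0 stretches of 25 identical bases, and EIF4A3 shared 0 with either.
EIF4A2: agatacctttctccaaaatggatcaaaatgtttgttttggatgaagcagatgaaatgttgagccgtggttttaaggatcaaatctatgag
EIF4A1: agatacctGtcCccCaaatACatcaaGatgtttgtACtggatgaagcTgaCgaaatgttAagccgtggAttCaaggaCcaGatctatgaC
EIF4A3: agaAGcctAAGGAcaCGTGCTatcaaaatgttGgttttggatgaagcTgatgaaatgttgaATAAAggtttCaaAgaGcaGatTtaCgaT

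EIF4E has a processed pseudogene, EIF4EP2, to which the deposited values assign reads. Its 654 bases differ from the EIF4E coding sequence at 4. The first 90 coding bases of each are shown, with the 2 bases of EIF4EP2 that differ from EIF4E in capitals; the EIF4EP2 stretch is chr17:49424833-49424922 on the minus strand of GRCh38.
EIF4E: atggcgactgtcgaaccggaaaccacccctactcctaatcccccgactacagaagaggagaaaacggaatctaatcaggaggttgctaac
EIF4EP2: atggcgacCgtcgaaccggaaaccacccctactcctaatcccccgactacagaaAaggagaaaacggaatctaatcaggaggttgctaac

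Depth was low and set what could be seen. Whether the deposited values stand for all reads sequenced or for a subset of them is not known, so the levels, shares and ratios below describe the reads in the deposited values. The deposited FPKM values (reads divided by exonic length and by the total of the library) stood for whole reads, and the recovered totals were 106245, 94083 and 103462 reads in the shFTO libraries, against 94349, 100992 and 93629 reads in the shNC libraries. At least 1 read fell in 7057 genes, and 705 genes had 10 or more reads per library on average. FTO itself (ENSG00000140718, chr16:53701692-54158512, plus strand) was listed at 0 in every library, so the knockdown could not be checked. A limit of 3 reads allows up to 0.462 FPKM of FTO over the shFTO libraries and 0.486 FPKM over the shNC libraries. Of 12 mesenchymal and bone markers 9 had reads, 590 in all, while ALPL, BGLAP and SPP1 were at 0. Of 8 epithelial markers 2 had reads, 7 in shFTO and 1 in shNC, with EPCAM and CDH1 at 0. Of 5 endothelial markers 1 had a single read, and the 6 blood markers were at 0.

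The set was dominated by 1 gene. EIF4G2 had the highest FPKM and the most reads of the 61806 genes listed, 51570 reads or 8.70% of all reads recovered. The 10 genes together held 57453 reads, 9.69% of the total. EIF4G2 accounted for 89.8% of these, and EIF4G2 with EIF4A2 for 97.6%. The order of mean FPKM over the 6 libraries was EIF4G2, EIF4A2, EIF4E, EIF4G1, EIF4E2, EIF4B, EIF4H, EIF4A1, EIF4A3 and EIF4G3. Steps of 8.26-fold from EIF4A2 up to EIF4G2, 5.76-fold from EIF4E up to EIF4A2, 3.08-fold from EIF4G1 up to EIF4E and 6.99-fold from EIF4B up to EIF4E2 separated neighbours whose libraries did not overlap. EIF4G1 and EIF4E2 overlapped in range, and so did each neighbouring pair from EIF4B downwards. MG63 is the one line with libraries here.

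**Figure D1:**
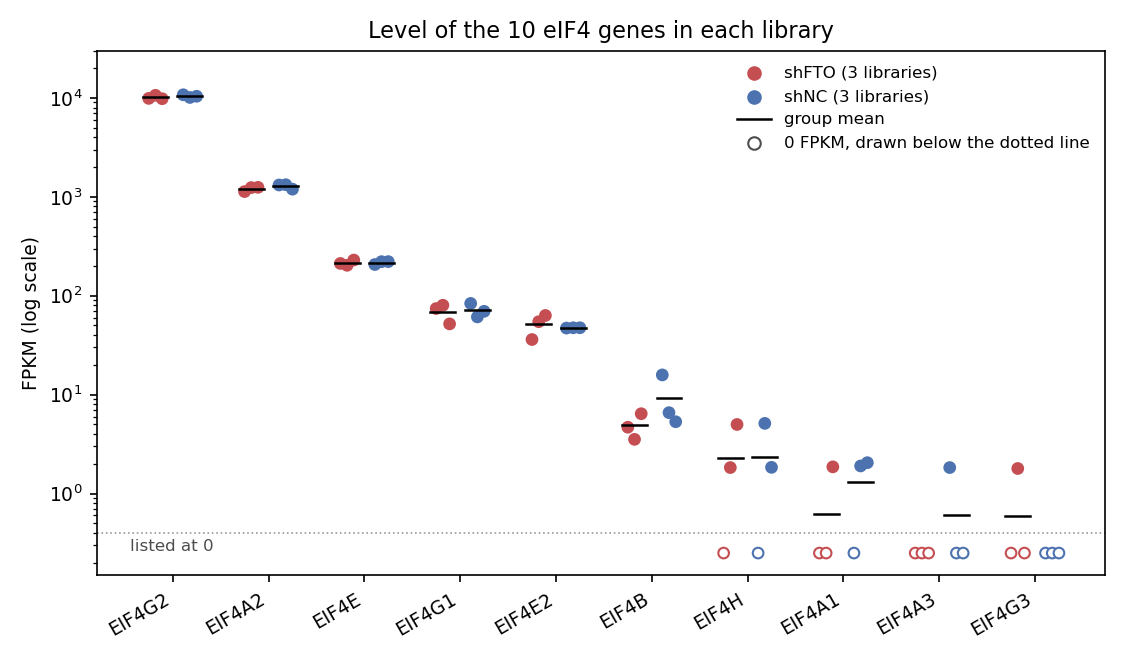
FPKM of the 10 eIF4 genes on a log axis, with shFTO libraries in red to the left of shNC libraries in blue, bars at the group means and open points below the dotted line for libraries listed at 0. The genes spread from a mean of 10270 FPKM for EIF4G2 to 3 reads or fewer in all for EIF4A1, EIF4A3 and EIF4G3, and the groups lie beside each other for every gene.

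None of the 8 genes that could be tested passed the threshold between shFTO and shNC cells. The test was limma on log2(FPKM + 1) with Benjamini-Hochberg adjustment over 4932 genes, and 0.0406% of those genes, 2 in all and both lower in shFTO, passed an adjusted p of 0.05. At an unadjusted p under 0.05 the count was again 0 of 8, against a background of 3.85%. Fitted to the recovered reads, limma-voom called 0 of 8, against 0.101% of genes tested, and a quasi-Poisson model called 0 of the 5 it could fit, with 0 calls over all genes. In none of the 8 did the 3 shFTO libraries lie wholly above or below the 3 shNC libraries, against 6.59% of all genes tested. In bulk RNA, fewer cells of a type and less RNA per cell cannot be told apart, and FPKM gives a share of the library, not an amount per cell.

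How small a difference the data allow depended on the reads. For EIF4G2, EIF4A2, EIF4E, EIF4G1 and EIF4E2 the 95% interval of the fold change lay inside 2-fold in either direction. That held for 8.96% of all genes tested, and for 72.1% of the 705 genes that averaged 10 reads or more. EIF4B, EIF4H and EIF4A1 had intervals reaching past 2-fold. EIF4A3 and EIF4G3 did not reach a mean of 1 FPKM in either group and were not tested.

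**Figure D2:**
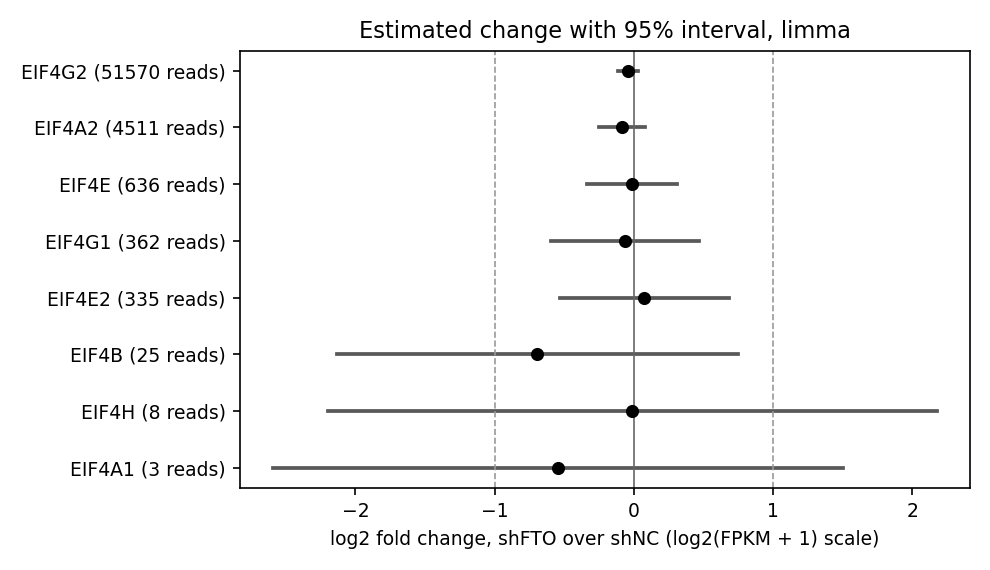
Estimated log2 fold change of shFTO over shNC with its 95% interval from limma, on the log2(FPKM + 1) scale, for the 8 eIF4 genes tested, ordered by reads over the 6 libraries. Dashed lines mark 2-fold in either direction; the 5 genes with the most reads lie inside them and the 3 with the fewest cross them.

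Among the scaffolds, EIF4G2 (ENSG00000110321, chr11:10797050-10808940, minus strand, 8485 exonic bases) was listed at 9895, 10633 and 9819 FPKM in the shFTO libraries, against 10765, 10113 and 10395 FPKM in the shNC libraries. The second shFTO library stood above the other shFTO libraries and inside the shNC range, so the groups overlapped. The mean was 10116 ± 449 FPKM in shFTO cells and 10424 ± 327 FPKM in shNC cells (SD, n = 3 each). The log2 fold change was -0.04 (SE 0.04, 95% interval -0.12 to 0.03), with an adjusted p of 0.772 by limma. In reads the gene had 8920, 8488 and 8620 in shFTO libraries, against 8618, 8666 and 8258 in shNC libraries. A quasi-Poisson fit to the recovered reads gave the same estimate with an unadjusted p of 0.0164. The adjusted p was 0.842 over 1021 genes, of which 5.29% had an unadjusted p under 0.05. That fit draws the variance over counting error of each gene towards that of the other genes (median 1.81). For EIF4G2 itself this value was 12.5 within groups, so the unadjusted p of 0.0164 understates its replicate spread.

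The number of reads made replicate spread, not counting error, the limit for EIF4G2. Its variance over counting error within groups, the Pearson dispersion, was 12.5, the highest among 150 genes averaging 100 or more reads in each library, whose median was 1.93 and 90th percentile 5.74. That measure grows with reads when the relative spread is constant, and EIF4G2 had the most. EIF4E, the cap-binding protein, stood near the other end at 0.282, rank 148 of 150. EIF4G2's share of a library was 8.40%, 9.02% and 8.33% of the reads in shFTO, against 9.13%, 8.58% and 8.82% in shNC. Every other gene's FPKM is computed with those reads in the denominator.

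EIF4G1, the main scaffold of the cap complex (ENSG00000114867, chr3:184314495-184335358, plus strand), was listed at 74.2, 80.2 and 51.9 FPKM in the shFTO libraries, against 83.6, 61.1 and 69.6 FPKM in the shNC libraries. The lowest value was in shFTO and the highest in shNC, with the others between them, and the groups overlapped. It had 182 reads in shFTO and 180 in shNC. The log2 fold change was -0.07 (SE 0.26, 95% interval -0.60 to 0.47; adjusted p 0.952, limma), and its sign turned without shFTO replicate 3 (0.12) or without shNC replicate 1 (0.05). EIF4G3, another cap-complex scaffold (ENSG00000075151, chr1:20806292-21177285, minus strand), had 2 reads, both in shFTO replicate 2 (1.79 FPKM), and was listed at 0 in the other libraries. The limit of 3 reads for a library at 0 is 2.38 to 2.70 FPKM for this gene. Over all libraries of a group, 3 reads correspond to 0.831 FPKM in shFTO and 0.874 FPKM in shNC. A difference between groups below these levels was not detectable at this depth.

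Per base of exon, EIF4G2 outnumbered EIF4G1 by 147-fold over the 6 libraries (95% counting interval 133 to 163). The same reads of all exons divided by coding length gave 251-fold. No reads were counted over coding sequence alone. The log2 ratio of EIF4G2 over EIF4G1 was 7.06, 7.05 and 7.56 in shFTO libraries, against 7.01, 7.37 and 7.22 in shNC libraries. The means were 7.22 ± 0.29 in shFTO and 7.20 ± 0.18 in shNC (SD, n = 3 each). They differed by 0.02, less than either SD, with an exact two-sided permutation p of 0.8 and 0.9 after adjustment over the 2 paralogue pairs that could be tested of 4 compared. With 3 libraries against 3 the smallest p this test can give is 0.1. EIF4G3 stood at 0.00407 of EIF4G1 per base of exon (95% counting interval 0.000491 to 0.0148). The counting intervals cover counting error only, as PCR reads without molecular identifiers are not independent molecules. EIF4G1, EIF4G2 and EIF4G3 shared 0 stretches of 25 identical bases between any pair of their annotated transcripts.

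Among the helicases, EIF4A2 (ENSG00000156976, chr3:186783205-186789897, plus strand) was the second most abundant of the 10 genes and rank 25 by FPKM of all genes. It was listed at 1130, 1240 and 1247 FPKM in the shFTO libraries, against 1318, 1326 and 1195 FPKM in the shNC libraries. The lowest shNC value fell among the shFTO values and the groups overlapped. The mean was 1206 ± 65.6 FPKM in shFTO and 1280 ± 73.2 FPKM in shNC (SD, n = 3 each), a log2 fold change of -0.09 (SE 0.08, 95% interval -0.25 to 0.08; adjusted p 0.772, limma). limma-voom on the recovered reads gave an unadjusted p of 0.0182 for EIF4A2 and an adjusted p of 0.793; 5.39% of genes had an unadjusted p under 0.05 by that method.

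EIF4A1, usually described as the principal eIF4A of growing cells (ENSG00000161960, chr17:7572824-7579006, plus strand), had 3 reads in all 6 libraries. It was listed at 0, 0 and 1.86 FPKM in shFTO, against 0, 1.9 and 2.05 FPKM in shNC, each non-zero value being 1 read. Per base of exon EIF4A2 exceeded it 1275-fold, with a 95% counting interval of 436 to 6186. A limit of 3 reads corresponds to 5.43 to 6.16 FPKM per library, far under the level of EIF4A2 in any library. The fitted log2 fold change of -0.54 had an SE of 1.01 and a 95% interval that starts at -2.59 and reaches above 0. With a pseudocount of 0.1 the estimate for EIF4A1 was -1.49 (SE 2.48). SENP3-EIF4A1, the readthrough gene that covers the same exons, was at 0 in every library. EIF4A3, the exon junction helicase (ENSG00000141543, chr17:80134369-80147151, minus strand), had 0 reads in shFTO and 1 read in shNC (1.83 FPKM in shNC replicate 1). The ratio of EIF4A2 to EIF4A1 per base of exon was 1901 in shFTO libraries and 962 in shNC libraries, resting on 1 and 2 reads of EIF4A1.

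Among the cap-binding proteins, EIF4E (ENSG00000151247, chr4:98879276-98929133, minus strand) was listed at 212, 203 and 229 FPKM in the shFTO libraries, against 207, 221 and 221 FPKM in the shNC libraries. The shFTO values spanned the shNC values on both sides. The mean was 215 ± 13.4 FPKM in shFTO and 216 ± 8.3 FPKM in shNC (SD, n = 3 each), with a log2 fold change of -0.01 (SE 0.16, 95% interval -0.33 to 0.31; adjusted p 0.999, limma). Its sign turned without shFTO replicate 2 (0.028), without shNC replicate 2 (0.0044) or without shNC replicate 3 (0.0051).

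EIF4E2, a cap-binding homologue known for repressing translation with GIGYF2 (ENSG00000135930, chr2:232550659-232583644, plus strand), was listed at 36.1, 54.6 and 63.1 FPKM in the shFTO libraries, against 47.1, 47.4 and 47.4 FPKM in the shNC libraries. The shNC libraries lay close together, with an SD of 0.205 FPKM, and the shFTO libraries on both sides of them, with an SD of 13.8 FPKM. In reads these were 44, 59 and 75 in shFTO, against 51, 55 and 51 in shNC. The shNC spread was smaller than counting error at such counts, and the difference in spread was not tested. Within groups the Pearson dispersion of EIF4E2 was 2.26. The log2 fold change was 0.08 (SE 0.30, 95% interval -0.53 to 0.69; adjusted p 0.952, limma), and -0.090 without shFTO replicate 3. The log2 ratio of EIF4E2 over EIF4E was -2.56, -1.89 and -1.86 in shFTO libraries, against -2.14, -2.22 and -2.22 in shNC libraries. Its means, -2.10 ± 0.39 in shFTO and -2.19 ± 0.05 in shNC (SD, n = 3 each), differed by 0.09, with an exact two-sided permutation p of 0.9 and 0.9 after adjustment over the 2 pairs. Over the 6 libraries EIF4E2 stood at 0.228 of EIF4E per base of exon (95% counting interval 0.199 to 0.261). With the same reads of all exons divided by coding length the ratio was 0.467, so its size depends on the length used.

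Of the cofactors, EIF4B (ENSG00000063046, chr12:53006282-53042215, plus strand) had 3, 2 and 4 reads in the shFTO libraries, against 9, 4 and 3 reads in the shNC libraries. The highest count was shNC replicate 1, and the other shNC libraries overlapped the shFTO libraries. Scaled to depth, the ratio of shFTO to shNC reads was 0.535, with a 95% counting interval of 0.208 to 1.29, and the fitted log2 fold change of -0.69 (SE 0.71; adjusted p 0.772, limma) became -0.27 without shNC replicate 1. EIF4H (ENSG00000106682, chr7:74174231-74197122, plus strand) had 0, 1 and 3 reads in shFTO, against 0, 3 and 1 reads in shNC. The read ratio of 0.951 for EIF4H had an interval of 0.177 to 5.11, so a several-fold difference in either direction was not detectable at this depth.

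Read together by the same fit, the 8 tested genes had a median log2 fold change of -0.05. Of their estimates 7 of 8 were below 0, as were 49.6% of all 4932 genes tested. EIF4A1 passed the filter through shNC alone (mean 1.32 FPKM, against 0.62 in shFTO), which leans its estimate below 0. The median size of the estimate was 0.07 in the 8 genes, 0.70 over all genes tested and 0.06 over the 150 most-read genes, those averaging 100 reads or more. The summed reads of the 10 genes per 100000 reads were 9303, 10021 and 9336 in shFTO libraries, against 10182, 9620 and 9783 in shNC libraries. The sum averaged 9553 ± 405 in shFTO and 9862 ± 290 in shNC (SD, n = 3 each) and followed EIF4G2. Without EIF4G2 the other 9 genes summed to 907, 999 and 1004 per 100000 in shFTO libraries, against 1048, 1039 and 963 in shNC libraries, again overlapping.

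**Figure D3:**
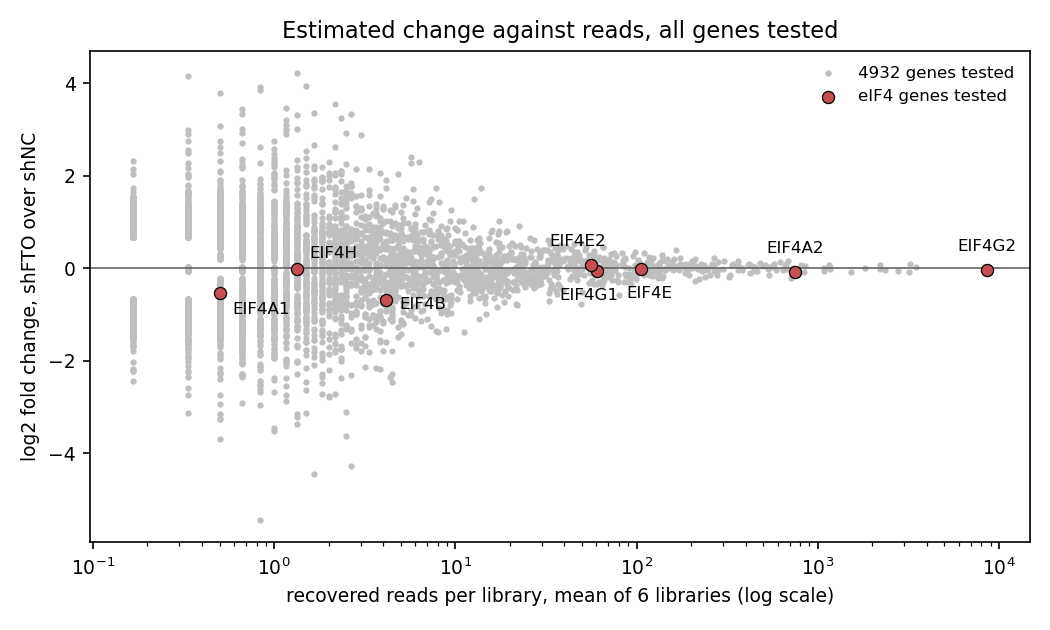
Estimated log2 fold change of shFTO over shNC (log2(FPKM + 1) scale) against mean reads per library on a log axis, with the 4932 genes tested in grey and the 8 eIF4 genes tested in red. The grey cloud narrows as reads increase, from beyond 4 on the log2 scale near 1 read to within 1 above 100 reads, and the eIF4 genes lie within it at their read number.

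Across the 6 libraries, the genes whose FPKM moved most like that of EIF4G2 were TNRC6A (Pearson r 0.973), a scaffold of microRNA silencing, CSNK1A1 (0.943), the kinase casein kinase 1 alpha, and KDM6A (0.922), a histone demethylase, among 149 genes that averaged 100 or more reads. TNRC6A was listed at 91.5, 120 and 88.7 FPKM in shFTO libraries, against 133, 107 and 109 FPKM in shNC libraries. EIF4A2 had an r of 0.399 with EIF4G2, rank 31. The median r was -0.12. The 6 points share their library totals, and the highest of 149 coefficients over 6 points is a description only.

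Other genes of the cap-dependent pathway were read from lists named by role. In either direction 0 of their tested members passed the adjusted threshold, against 0.0406% of all genes tested, so the lists do not stand apart. Of the 15 genes listed as eIF4E regulators, which include the nuclear cap-binding complex, 9 could be tested, with 6 estimates higher and 3 lower in shFTO. The most-read of them, CYFIP1, which holds eIF4E at synapses as part of a repressor complex, had 21, 12 and 19 reads in shFTO libraries, against 7, 18 and 14 reads in shNC libraries (log2 fold change 0.38, adjusted p 0.812, limma). GIGYF2, the partner of EIF4E2, had 40 reads in shFTO and 38 in shNC. EIF4EBP1, the inhibitor that competes with eIF4G for eIF4E, had 0 reads in shFTO and 3 in shNC, and had the only unadjusted p under 0.05 of the 9 (0.0189), against 3.85% of all genes tested. Counts that small are at the limit of 3 reads. EIF4EBP1 passed the filter through shNC alone (mean 11.5 FPKM, against 0 in shFTO), which sets the direction of its estimate.

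The partners of the complex differed widely in reads: 5 of 10 had at least 10 reads in an average library and 3 were at 0. Of the 10, 6 were tested, with 2 estimates higher and 4 lower in shFTO. DDX3X, a DEAD-box helicase of initiation, had 8338 reads in shFTO and 8316 in shNC. YBX1, an mRNA-packaging protein, had 6735 reads in shFTO and 6507 in shNC. PABPC1, the poly(A)-binding protein that contacts eIF4G, had 5640 reads in shFTO and 5336 in shNC. Their log2 fold changes were -0.07 for DDX3X, -0.02 for YBX1 and 0.01 for PABPC1. PAIP2, an inhibitor of PABPC1, was listed at 623, 569 and 597 FPKM in shFTO libraries, against 396, 615 and 545 FPKM in shNC libraries (log2 fold change 0.22, adjusted p 0.772, limma), with 1 low shNC library and overlapping groups. PABPC4, a related poly(A)-binding protein, had 74 reads in shFTO and 70 in shNC.

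Genes that work with EIF4A3, and those that signal to the complex, had fewer reads. In the exon junction list 6 of 10 genes were tested, with 5 estimates higher and 1 lower, in shFTO. Some of these genes, such as UPF1 and RBM8A, reached the filter of 1 FPKM through shFTO alone, which leans their estimates upwards. UPF2, a nonsense-mediated decay factor, had 45 reads in shFTO and 49 in shNC. RNPS1, a splicing-linked subunit, had 11 in shFTO and 5 in shNC, and CASC3, a core subunit, had 4 in shFTO and 2 in shNC. UPF1, the helicase of nonsense-mediated decay, had 5 reads in shFTO and 0 in shNC, and RBM8A, a core subunit, had 2 in shFTO and 1 in shNC. In the signalling list 9 of 17 were tested, with 3 estimates higher and 6 lower. RPS6KB1, the S6 kinase that phosphorylates EIF4B, had 139, 116 and 159 reads in shFTO libraries, against 128, 155 and 117 reads in shNC libraries (log2 fold change -0.02, adjusted p 0.980, limma). RPS6KA3, a kinase of the RSK family, had 150 reads in shFTO and 149 in shNC, and the kinase target RPS6 had 18 in shFTO and 25 in shNC. RHEB, which activates mTORC1, had 15 in shFTO and 17 in shNC.

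Other proteins with the MIF4G fold of eIF4G had few reads beside EIF4G2. Of 7 such genes 4 were tested, with 2 estimates higher and 2 lower. After UPF2, the most-read were PAIP1, which binds PABPC1, with 6 reads in shFTO and 12 in shNC, NCBP1 of the nuclear cap-binding complex, with 6 in shFTO and 10 in shNC, CTIF, a partner of the nuclear cap-binding complex, with 5 in shFTO and 0 in shNC, and MIF4GD, with 1 in shFTO and 0 in shNC. The median log2 fold change was 0.06 for the regulators, -0.04 for the partners, 0.57 for the exon junction genes, -0.02 for signalling and -0.08 for the MIF4G genes, beside 0.00395 for all genes tested. The lists share members: UPF2, PAIP1, NCBP1 and CWC22 each stand in 2 of them. In the exon junction list 5 of the 6 tested genes had 16 reads or fewer over the 6 libraries. Some, such as UPF1 (mean 1.84 FPKM in shFTO, 0 in shNC) and RBM8A (1.26 and 0.663), passed the filter through shFTO alone. CTIF (2.14 and 0) did so in the MIF4G list. A gene admitted through its higher group has an estimate that leans that way, so the median of 0.57 was not read as a difference.

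Pseudogenes bear on which gene a read was given to. The table held 38 processed copies and readthrough genes of the 10 genes, of which 6 had reads, and EIF4G1, EIF4G2 and EIF4G3 had none listed. EIF4EP2 (ENSG00000229944, chr17:49424269-49424922, minus strand) had 343 reads, beside 636 for EIF4E. Of its stretches of 100 bases, 71.5% also occurred in an EIF4E transcript, so reads from them could be assigned to either gene. Of the 100-base stretches of the EIF4E transcripts, 2.77% occurred in EIF4EP2. The values of both genes are uncertain where they share sequence. EIF4EP2 was listed at 964, 894 and 1005 FPKM in the shFTO libraries, against 697, 712 and 1029 FPKM in the shNC libraries. The third shNC library was the highest of all, and the groups overlapped. The log2 fold change was 0.25 (SE 0.13, 95% interval -0.03 to 0.54, adjusted p 0.772 by limma). Without shNC replicate 3, the highest library, it was 0.44 with an adjusted p of 0.0816 by limma. With any other library left out it was 0.16 to 0.30, with an adjusted p of 0.773 to 0.790. FPKM divides the reads of EIF4EP2 by 654 exonic bases and those of EIF4E by 4971. With the reads of all exons divided by coding length and library total instead, the order turned, with 885 for EIF4EP2 and 1641 for EIF4E.

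The other copies held few reads, which for EIF4A1 was still more than the gene itself. EIF4A1P10 had 2, 0 and 0 reads in shFTO libraries, against 1, 1 and 5 reads in shNC libraries, 9 in all beside 3 for EIF4A1, and 6.98% of its 100-base stretches occurred in EIF4A1. EIF4A2P4 had 0, 0 and 1 reads in shFTO, against 1, 1 and 2 reads in shNC; scaled to depth its groups did not overlap, as in 6.59% of genes tested, and its p was 0.00943 unadjusted and 0.772 adjusted by limma. For EIF4A1P10 the p was 0.0275 unadjusted and 0.772 adjusted by limma. These 2 of the 6 tested copies were the ones under an unadjusted 0.05, against 3.85% of all genes tested. EIF4A2P2, EIF4BP7 and EIF4HP2 had 3 reads or fewer each. For EIF4G2, the leading gene, no copy was listed, and for EIF4A2 the copies held 8 reads beside 4511.

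**Figure D4:**
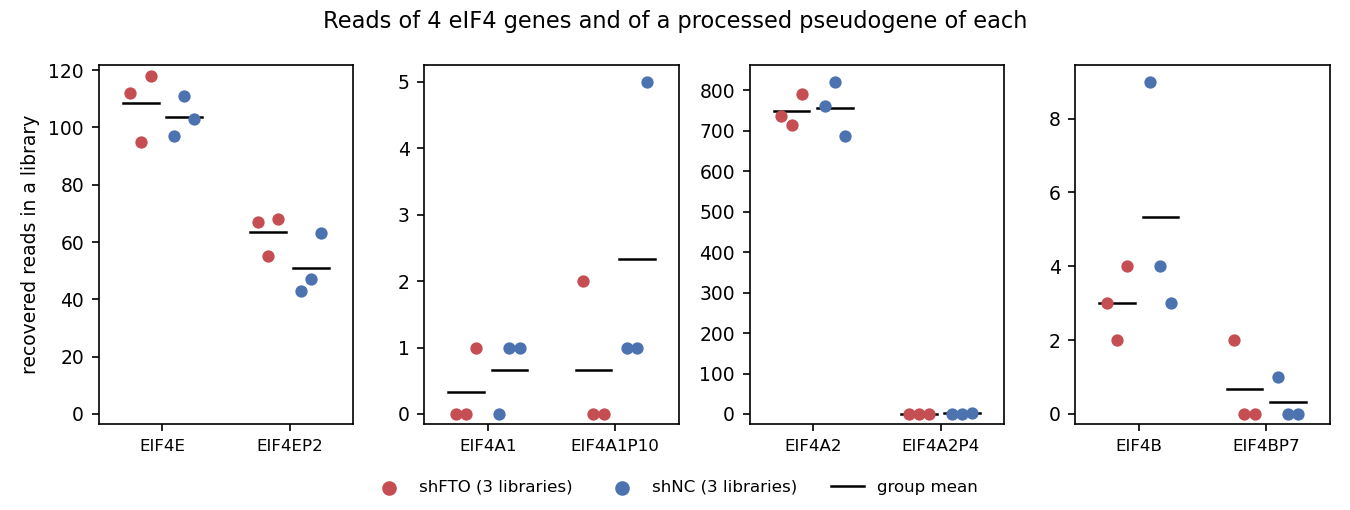
Recovered reads per library of 4 eIF4 genes and of 1 processed pseudogene of each, with shFTO in red left of shNC in blue, bars at the group means, and a scale of its own for each pair. EIF4EP2 carried 343 reads beside 636 for EIF4E, EIF4A1P10 had 9 beside 3 for EIF4A1, and EIF4A2P4 and EIF4BP7 stayed near 0.

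The first 3 genes kept their order when coding length replaced exonic length and the reads of all exons were kept. On that scale, with the unit of FPKM, EIF4G2 had 31938, EIF4A2 6217, EIF4E 1641, EIF4E2 766 and EIF4G1 127 over the 6 libraries, which places EIF4E2 above EIF4G1, the reverse of the order by exonic length. EIF4B had 23.0, EIF4H 18.1, EIF4A1 4.15, EIF4A3 1.36 and EIF4G3 0.709 on that scale. Reads from genes that overlap the 10 on the genome were few. CTR9, on the strand opposite EIF4G2, had 2 reads in all, and the other overlapping genes were listed at 0. The strand setting of the counting is not given in the sources used here, so reads of opposite-strand partners could not be told apart from those of the 10 genes.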

How the data were processed

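Poly(A) RNA of MG63 cells was extracted with TRIzol and sequenced strand-specifically on an Illumina NovaSeq, per the labels. The submitters' processing notes name GRCh38 and the tools HISAT2 2.2.1, StringTie 1.3.3b, HTSeq 0.6.1, FastQC 0.10.1 and DESeq2 1.50.2, without their roles or a strand setting. The deposited unit is FPKM per gene, made by the authors and rounded to 2 decimals, with exonic length. FPKM times length was whole within 0.05 read for 100% of values at the recovered totals.

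shFTO and shNC (3 libraries each) were compared with limma 3.58.1 (trend, robust) in R 4.3.3 on log2(FPKM + 1), group as the only term, for the 4932 genes averaging 1 FPKM or more in either group; fold changes on this scale understate low genes. P-values were adjusted by Benjamini-Hochberg and called under 0.05. By limma they measure the spread between replicates that the labels call biological, and the fits moderate that spread across genes. Paralogue ratios used exact permutation in SciPy 1.17.1 (Python 3.11.15); read ratios have exact binomial 95% intervals, and a count of 0 a limit of 3 reads. Library pairs differed beyond sampling noise (chi-square over df 1.72 to 2.24, 704 df), so none was a repeat deposit.

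The genes and lists were chosen with earlier results of these data known. Named were FTO, the 10 genes, up to 5 most-read genes per list and the 3 genes most like EIF4G2; EIF4EBP1, EIF4HP2 and CTR9 were named after their values were seen. One gene that this rule takes is not reported here. Sequences came from GENCODE release 29 transcripts on GRCh38. Alternatives were another pseudocount (0.1), no filter, at least 10 reads per library, median-of-ratios scaling, limma-voom and a quasi-Poisson fit (at least 30 reads) to recovered reads, a replicate block, a threshold of 0.01 and each library left out. The fits were also run on simulated reads, with no result given here and none used as support.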

Additional observations from a re-analysis of the deposited data

How the results depend on the processing

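The genes called over all genes numbered 2 in the main analysis, 7 with a pseudocount of 0.1, 9 with no filter, 0 with at least 10 reads per library, 5 by limma-voom, 0 by the quasi-Poisson fit, 1 at an adjusted p under 0.01, and 2 to 9 with a library left out; the quasi-Poisson fit had 54 of 1021 genes at an unadjusted p under 0.05. With the replicate block the count was 17 (13 higher and 4 lower). The main fit was planned with group as the only term, and the replicate numbers were not taken as pairs. Same-numbered libraries had r between -0.01 and 0.04 over genes averaging 10 or more reads. Counting noise there could hide a shared deviation, so these values do not settle whether the numbers are pairs. Among the 8 eIF4 genes tested, 0 were called under any of these alternatives, with adjusted p between 0.678 and 1. Their estimates kept direction in 50 of 50 values from other settings. Part of that count was fixed in advance. With no filter, at least 10 reads per library or the replicate block, the estimate equals the main one by construction. With 1 library left out, 9 of 47 values changed sign and none was called. The log2 changes then ranged from -0.08 to -0.02 for EIF4G2, -0.13 to -0.04 for EIF4A2, -0.059 to 0.028 for EIF4E, -0.19 to 0.12 for EIF4G1, -0.090 to 0.31 for EIF4E2, -0.97 to -0.27 for EIF4B, -0.70 to 0.67 for EIF4H and -1.07 to -0.29 for EIF4A1. The last has 5 values, since without shNC replicate 3 EIF4A1 fell below the filter. EIF4B, EIF4H and EIF4A1 have no value at 10 reads per library or in the quasi-Poisson fit. The log2 ratio of EIF4G2 over EIF4G1 differed by -0.15 to 0.11 and that of EIF4E2 over EIF4E by -0.033 to 0.31. The summed reads per 100000 differed by -542 to -148, shFTO minus shNC. The causes were not tested. Few reads limit what can be said of EIF4B, EIF4H, EIF4A1, EIF4A3 and EIF4G3, which have 25 reads or fewer each.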
